A study of Camellia sinensis with 12 samples.

Results

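Bud and second leaf are the youngest and the most mature leaf organs of the tea shoot in this study, and the sBud vs. sL2 comparison set the miRNAs of the bud against those of the second leaf. It used 6 of the 12 libraries of the series, 3 labelled sBud and 3 labelled sL2. All came from untreated plants of the tea cultivar Xinyang Maojian (XYMJ; Camellia sinensis), of the same age and from the same garden. According to the study's methods, sBud was the bud at the top of the shoot and sL2 was the second leaf below it, which was larger and of higher maturity. The other libraries came from the first leaf below the bud (sL1) and from the stem between the leaves (sS1). The members of the comparison were all miRNA IDs that reached 10 counts when the 12 libraries were added up, which were 222 of the 650 listed IDs. Of these, 204 carried the name of a conserved family and 18 did not. The other 428 IDs were under this minimum and were not tested.

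miRNAs of plants are short RNAs that are cut from hairpin precursors by a Dicer-like enzyme, loaded into an ARGONAUTE protein and led by base pairing to mRNAs, which are then cleaved or less translated. Most of the conserved families have a small set of targets, many of them transcription factors that decide when and where a leaf grows. In Arabidopsis, miR319 acts on TCP factors that end cell division in the leaf, miR396 acts on growth-regulating factors that keep it going, miR164 sets organ borders through NAC factors, and miR166 marks the lower side of the leaf through HD-ZIP III factors. miR160, miR167, miR390 and miR393 act on the auxin pathway. Members of a family often differ by few bases, and the targets in tea were not measured in these libraries.

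Libraries of the same tissue were close to each other, with a median Pearson correlation of log2 levels from 0.9585 to 0.9664 over the tissues. The libraries labelled sL2 stood apart from those of every other tissue. Their median correlation was 0.8491 with sBud, 0.8273 with sL1 and 0.8565 with sS1. The libraries labelled sL1 and sS1, by contrast, correlated with each other with a median of 0.9573 (range 0.9487 to 0.9684 over 9 pairs), slightly under the median within any tissue. Their counts differed by 44.5 to 343 in chi-square per degree of freedom, against 16.1 to 124 between libraries of 1 tissue and 639 to 1101 between sBud and sL2. These are correlations across IDs, which share libraries and are not replicates. The counts hold no marker of an organ that could check a label, and the deposited tissue field says leaf for every library, so names of tissues below follow the labels of the libraries as deposited. Whether the labels sL2 and sS1 were exchanged was not tested. The study reports few DEMs between first and second leaf. It lists miR159 and miR319 members as changed in the same direction in both leaves against bud, and oppositely in the stem. In the libraries as labelled, sL1 correlated least with sL2. cas-MIR159-2 averaged 30502 CPM in sBud, 3515 CPM in sL1, 179078 CPM in sL2 and 4378 CPM in sS1. Against sBud, it thus changed in the same direction in sL1 and sS1 and oppositely in sL2. Other members were not compared in this way. If the labels were exchanged, the values given for sL2 would be those of the stem. Levels in sL1 and sS1 are set beside those of some members for this reason. The total count was 518453, 408240 and 547179 in the sBud libraries and 640623, 559217 and 647707 in the sL2 libraries. In bulk tissue, fewer cells of a type and less miRNA per cell cannot be told apart.

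A miRNA was called a DEM (differentially expressed miRNA) when its fold change was greater than 2, which is 1 on the log2 scale, and its p from edgeR's quasi-likelihood test was below 0.05 after Benjamini-Hochberg adjustment over the 222 IDs. A positive log2 fold change means a higher level in sBud. Levels are in CPM, for which edgeR divides counts by a library's total after TMM scaling, and are thus shares of a library and not absolute amounts. In total, 86 DEMs were identified, 38.7% of the tested IDs, with 40 higher (18%) and 46 lower (20.7%) in sBud. The median log2 fold change over all 222 IDs was 0. With the unadjusted p below 0.05, there were 96 DEMs (43.2%), 44 higher and 52 lower. Of the 86 DEMs, 62 changed more than 4-fold in the fit, 26 of them higher and 36 lower. These include 8 DEMs with 0 counts in all sL2 libraries and 7 with 0 counts in all sBud libraries, whose fitted value is no bound. The libraries of sBud and sL2 did not overlap for 80 of the 86 DEMs, and for 113 of all 222 IDs (50.9%). When each of the 6 libraries was left out in turn, 62 of the 86 DEMs were called every time, 32 higher and 30 lower, and 0 of the 86 changed direction in any alternative.

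**Figure D1:**
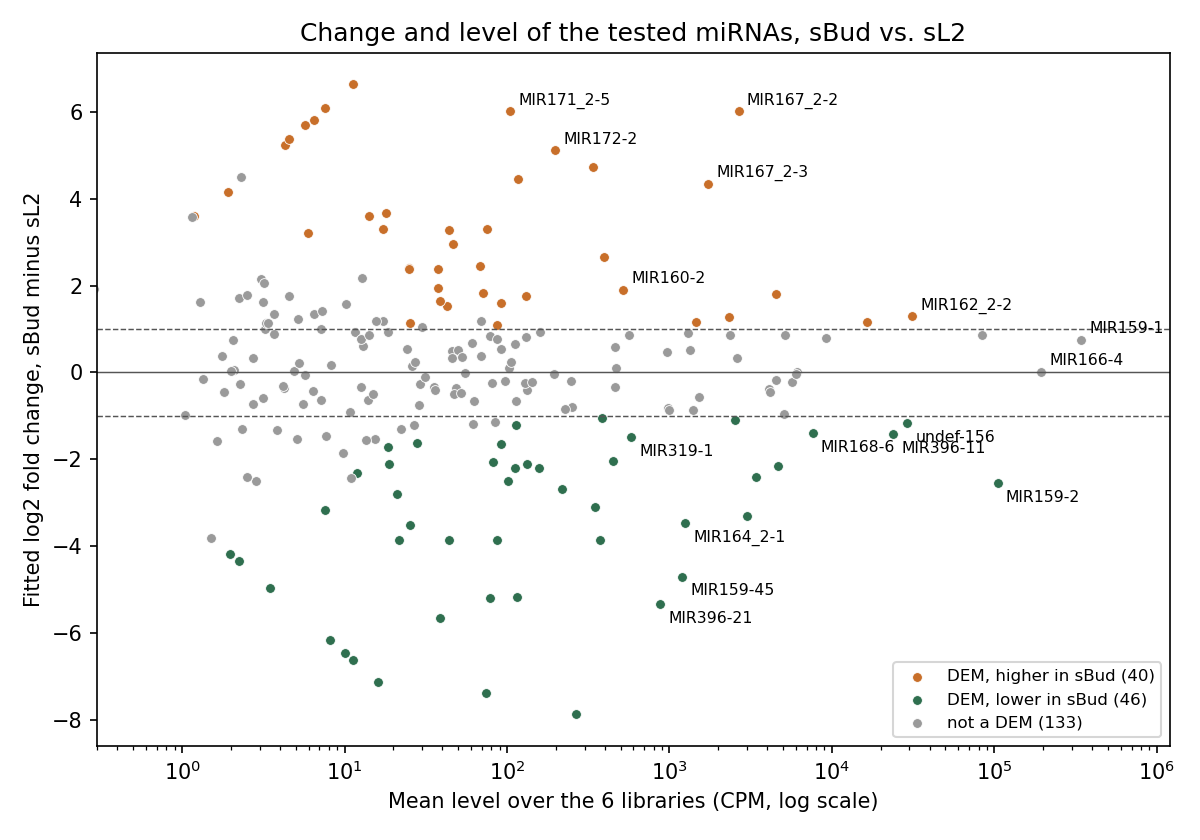
Fitted log2 fold change (vertical axis, sBud minus sL2) against the mean level over the 6 libraries (horizontal axis, CPM on a log scale), with 1 point per tested miRNA ID and dashed lines at a 2-fold change; 3 IDs with 0 counts in both tissues are left out. The DEMs, 40 higher and 46 lower in sBud, lie at every level, cas-MIR159-2 among the most abundant of all. For IDs counted in only 1 tissue, at the left, the fitted value depends on the small count that edgeR adds.

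DEMs were found at every depth. Among IDs with a mean of 1000 or more counts over the 6 libraries, 13 of 27 were DEMs. The number was 17 of 32 between 100 and 1000 counts, 37 of 77 between 10 and 100 counts, and 19 of 86 under 10 counts. The precision for the last group was low. There, 21 IDs did not exceed 3 counts in any sBud or sL2 library, and no fold change is given for these. Where a library held 0 counts, the true number may be up to 3, or between 5.16 and 7.47 CPM in the sBud libraries and between 4.26 and 4.53 CPM in the sL2 libraries (counting error only). Of the 136 IDs that were not DEMs, 40 had a fold change greater than 2 that missed the adjusted p, and for 17 the 95% confidence interval lay within a 2-fold change in either direction.

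The counts were also summed over the members of each family. Of 34 families tested, 16 (47.1%) were DEMs, 9 higher (26.5%) and 7 lower (20.6%) in sBud. The higher families were miR160, miR162, miR167, miR169, miR172, miR399, miR530, miR6149 and miR8762. The lower families were miR164, miR168, miR319, miR396, miR408, miR477 and miR2111. The median log2 fold change over the 34 families was 0.21. The families were scaled with the TMM factors of the IDs. With factors computed on the 34 families in place of these, the median shifted by -0.82, the families called became 3 higher and 11 lower, and the values of miR159, miR166, miR171, miR390, miR393 and miR403, none of which was a DEM, became negative. The 16 DEM families kept their direction with these factors, and 10 of them were still called. The other 6 were miR160 (0.97), miR162 (0.48, adjusted p = 0.136), miR172 (0.82), miR530 (0.81, adjusted p = 0.139), miR6149 (0.95) and miR8762 (1.44, adjusted p = 0.0543). miR398 (-1.62), miR482 (-1.14) and miR535 (-1.43) were among those newly called lower. miR168, miR530 and miR2111 were called with some but not with every single library left out.

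**Figure D2:**
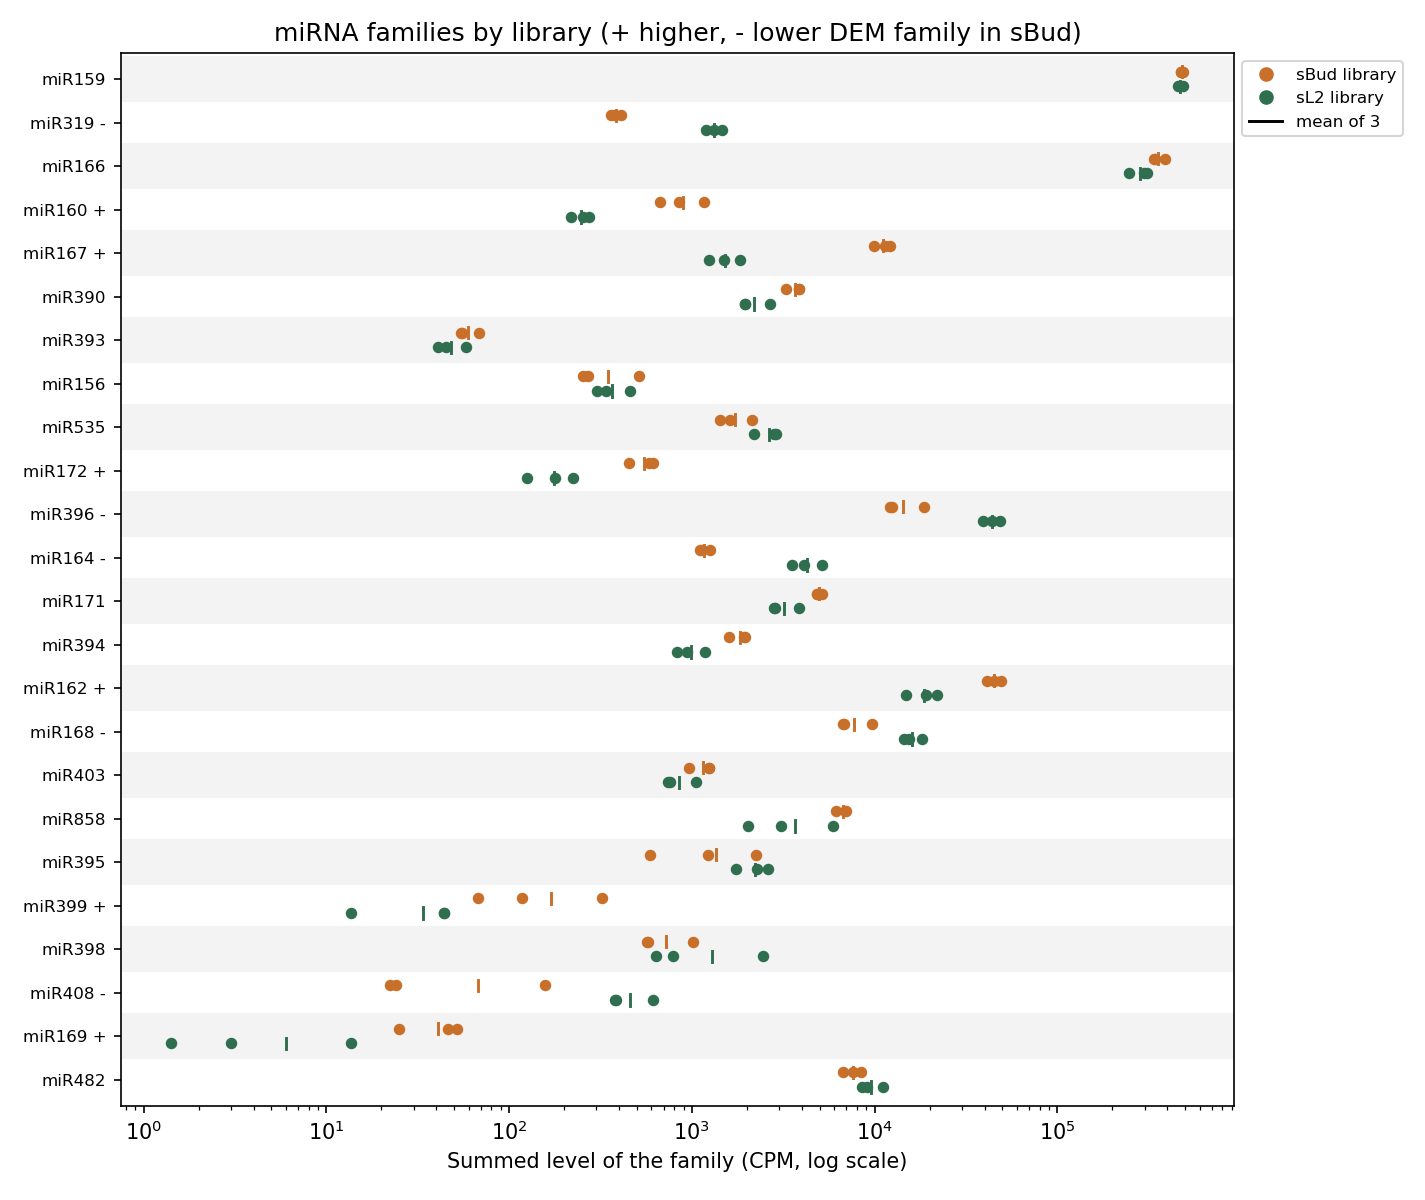
Summed level of each family with a known target class (horizontal axis, CPM on a log scale) in the 3 sBud libraries (upper points of a row) and the 3 sL2 libraries (lower points); vertical ticks are means of 3, and + or - after a name marks a family that was a DEM, higher or lower in sBud. In miR167 all sBud libraries lie between 9895 and 12184 CPM and all sL2 libraries between 1244 and 1827 CPM, while the levels of miR159 overlap.

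The miR159 family, whose targets are GAMYB-like MYB factors, was the most abundant in both tissues. As a family it had 478175 ± 6772 CPM in sBud and 468304 ± 17600.2 CPM in sL2 (SD, n = 3 each), with log2 fold change 0.03, SE 0.06, adjusted p = 0.699, and the value was negative with RLE factors (-0.016) and with library size alone (-0.064). It made up 49.9%, 47.8% and 50.2% of all counts in the sBud libraries and 50.5%, 54.0% and 50.1% in the sL2 libraries. The total hid a large difference in the make-up of the family.

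In sBud nearly all miR159 counts belonged to cas-MIR159-1. In sL2 a large part belonged to cas-MIR159-2. cas-MIR159-2 had 28775, 39530.0 and 23201 CPM in the sBud libraries, against 187586, 159898 and 189750.0 CPM in the sL2 libraries, and no library of a tissue came near those of the other (log2 fold change -2.55, SE 0.25, adjusted p = 1.83e-06). This was the DEM with the most counts. Within the family, cas-MIR159-2 held 6.04%, 8.14% and 4.91% of the counts in the sBud libraries and 38.4%, 35.1% and 41.2% in the sL2 libraries. cas-MIR159-1 went the other way. It had 430351, 429832 and 432283 CPM in the sBud libraries, against 264727, 262136 and 237725 CPM in the sL2 libraries, which did not overlap, but the change stayed under 2-fold (log2 fold change 0.76, SE 0.09, adjusted p = 2.64e-05), so it was not a DEM. In the other tissues, cas-MIR159-2 averaged 3515 CPM in sL1 and 4378 CPM in sS1, under the lowest sBud library, and cas-MIR159-1 averaged 339923 CPM in sL1 and 275789 CPM in sS1.

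**Figure D3:**
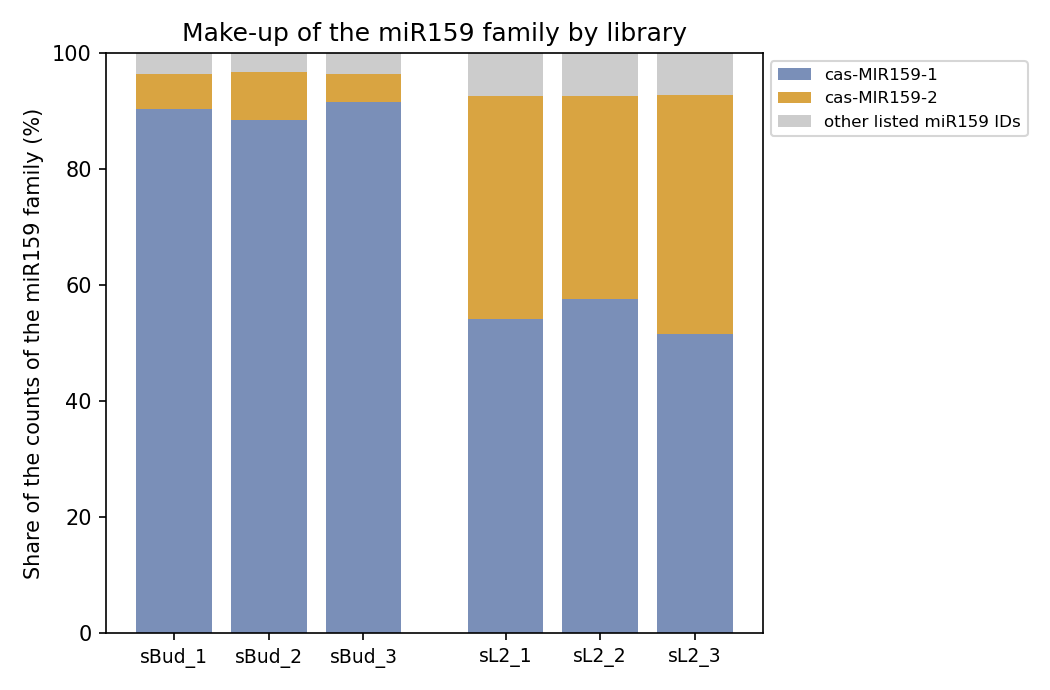
Share of the counts of the miR159 family (vertical axis, %) held by cas-MIR159-1, cas-MIR159-2 and all other listed miR159 IDs in each sBud and sL2 library (bars). cas-MIR159-2 holds between 4.91% and 8.14% in the sBud libraries and between 35.1% and 41.2% in the sL2 libraries.

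Of the 31 tested miR159 IDs, 5 were higher and 10 lower in sBud, beside 18% and 20.7% of all tested IDs. cas-MIR159-45 had 59.0, 115 and 91.1 CPM in the sBud libraries, against 3436, 2707 and 749.6 CPM in the sL2 libraries, and sL2 library 3 was well under the other sL2 libraries but above every sBud library (log2 fold change -4.71, SE 0.61, adjusted p = 2.76e-05). cas-MIR159-29 had 3.69, 7.47 and 6.87 CPM in the sBud libraries, against 205, 169.1 and 295 CPM in the sL2 libraries, without overlap (log2 fold change -5.18, SE 0.58, adjusted p = 9.08e-06). The lower level of cas-MIR159-38 in sBud rested on few counts, 3, 0 and 1 in sBud against 28, 40 and 14 in sL2, and the ratio of sL2 to sBud was 15.4 (95% exact counting interval 5.80 to 57.9). cas-MIR159-37 was higher in sBud, with 26, 9 and 5 counts in the sBud libraries, against 2, 0 and 2 counts in the sL2 libraries, a ratio of 13.3 (95% exact counting interval 4.81 to 51.2), and 2.85 in place of 3.60 on the log2 scale without sBud library 1.

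Others of the family are given after their values were seen. cas-MIR159-15 averaged 1707 ± 503 CPM in sBud and 7558 ± 1613 CPM in sL2 (SD, n = 3 each), and cas-MIR159-14 averaged 1084 ± 533 CPM in sBud and 5718 ± 1943 CPM in sL2 (SD, n = 3 each). The log2 fold changes were -2.15 (adjusted p = 0.000445) and -2.40 (adjusted p = 0.000578), close to that of cas-MIR159-2. For every 100 counts of cas-MIR159-2, cas-MIR159-14 had 2.26, 4.25 and 3.98 counts in the sBud libraries and 1.92, 3.83 and 3.92 in the sL2 libraries, so the ranges overlapped. For cas-MIR159-29 the same ratio was 0.0128, 0.0189 and 0.0296 in sBud and 0.109, 0.106 and 0.156 in sL2, without overlap. The 5 higher members were cas-MIR159-6, cas-MIR159-13, cas-MIR159-28, cas-MIR159-37 and cas-MIR159-47. Their means were between 26.3 and 118 CPM in sBud and between 1.95 and 55.1 CPM in sL2, so they contributed little to the family.

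miR319, close in sequence to miR159, acts on TCP factors in Arabidopsis and tomato. The family was lower in sBud, with 363, 379 and 407 CPM in the sBud libraries, against 1317, 1200.4 and 1455 CPM in the sL2 libraries (log2 fold change -1.79, SE 0.33, adjusted p = 0.000679). All libraries of sBud lay under all libraries of sL2. Of its 8 tested members, 7 were lower and 0 higher in sBud, beside 20.7% lower and 18% higher over all tested IDs. The most abundant, cas-MIR319-1, had 282, 291 and 339 CPM in the sBud libraries, against 772, 829 and 975.4 CPM in the sL2 libraries (log2 fold change -1.50, SE 0.33, adjusted p = 0.00211).

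A pair of rarer members was counted in sL2 and in no sBud library. cas-MIR319-2 had 0, 0 and 0 counts in the sBud libraries, against 10, 10 and 13 counts in the sL2 libraries, with a level in sBud at least 2.68-fold lower, when 0 is taken as 3 counts in each library. For cas-MIR319-3 the counts were 0, 0 and 0 in sBud against 14, 11 and 16 in sL2, at least 3.33-fold lower. cas-MIR319-9 had 2, 1 and 3 counts in the sBud libraries, against 32, 24 and 40 counts in the sL2 libraries, and the level in sL2 over that in sBud was 12.03 (95% exact counting interval 5.33 to 33.6). In the other tissues, cas-MIR319-1 averaged 31.5 CPM in sL1 and 51.9 CPM in sS1, under both sBud and sL2.

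The miR159 and miR319 IDs together, with MYB and TCP factors as targets, were 39 tested members. Of these, 5 were higher, 17 lower and 17 not called, beside 18% higher and 20.7% lower over all tested IDs. The median log2 fold change was -1.53 (-1.42 with IDs at 0 counts in a tissue set at their bound), beside 0 over all tested IDs. Most of these members were miR159 IDs, whose summed family was not a DEM (log2 fold change 0.03).

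miR166, which acts on the HD-ZIP III factors of the upper leaf side, was the second family in abundance. It had 354757 ± 27448 CPM in sBud and 284769 ± 34389 CPM in sL2 (SD, n = 3 each) and was not a DEM (log2 fold change 0.32, SE 0.14, adjusted p = 0.0646). Of its 32 tested IDs, 4 were higher, 0 lower and 28 not called, beside 18% higher and 20.7% lower over all tested IDs, with a median of 0.43. The main member, cas-MIR166-4, had 190645, 221871 and 174971 CPM in the sBud libraries, against 209613, 167645 and 203073 CPM in the sL2 libraries. These levels overlapped fully, with log2 fold change 0.02, SE 0.16, adjusted p = 0.954, and the sign of this value changed with RLE factors (-0.029) and library size alone (-0.076). In the other tissues, cas-MIR166-4 averaged 297835 CPM in sL1 and 400148 CPM in sS1.

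Next to it, cas-MIR166-41 had 102455, 116304 and 108736 CPM in the sBud libraries, against 67022, 49122 and 63189.8 CPM in the sL2 libraries, without overlap, but its change was under 2-fold (log2 fold change 0.87, SE 0.15, adjusted p = 0.000357), as was that of cas-MIR166-2 (log2 fold change 0.79, SE 0.21, adjusted p = 0.00778). Among the alternatives, they passed 2-fold only without single sL2 libraries, cas-MIR166-41 without sL2 library 1 (1.13) and cas-MIR166-2 without sL2 library 3 (1.02). cas-MIR166-22 was a DEM, with 22770.1, 20495 and 24519 CPM in the sBud libraries, against 13642, 8702 and 7898 CPM in the sL2 libraries (log2 fold change 1.16, SE 0.23, adjusted p = 0.000967). The other DEMs of the family, cas-MIR166-5, cas-MIR166-8 and cas-MIR166-39, named after their values were seen, averaged between 35.0 and 2006 CPM in sBud and between 15.7 and 893 CPM in sL2. Of these, cas-MIR166-8 overlapped between the tissues, and it was lost when any of 4 libraries was left out. cas-MIR166-39 was lost without sBud library 1 or sL2 library 2.

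Among families of the auxin pathway, the DEMs that were higher in sBud were mostly miR167 IDs. Of the 25 tested IDs of miR160, miR167, miR390 and miR393, 12 were higher, 2 lower and 11 not called, beside 18% higher and 20.7% lower over all tested IDs, with a median log2 fold change of 1.60, or 0.89 with IDs that had 0 counts in a tissue set at their bound. In the other families, 2 of 5 tested miR160 IDs were higher, as were 0 of 4 miR390 IDs and 0 of 3 miR393 IDs. miR167, with 13 tested IDs, accounted for 10 of the 12. In Arabidopsis it acts on auxin response factors that activate transcription. The family had 9895, 12184 and 11383 CPM in the sBud libraries, against 1827, 1493 and 1244 CPM in the sL2 libraries, and a log2 fold change of 2.87 (adjusted p = 9e-07).

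cas-MIR167_2-2, the most abundant member in sBud, had 4791, 5571 and 5367 CPM in the sBud libraries, against 115, 84.6 and 41.2 CPM in the sL2 libraries. Every sBud library was far above every sL2 library (log2 fold change 6.03, SE 0.39, adjusted p = 5.86e-08). cas-MIR167_2-3 had 2902, 3519 and 3463 CPM in the sBud libraries, against 217, 113 and 152 CPM in the sL2 libraries (log2 fold change 4.36, SE 0.29, adjusted p = 5.86e-08), and cas-MIR167_2-7 had 689, 727 and 539.7 CPM in the sBud libraries, against 16.6, 36.2 and 19.9 CPM in the sL2 libraries (log2 fold change 4.74, SE 0.36, adjusted p = 2.27e-07). Neither overlapped between the tissues. The level of cas-MIR167_2-2 in sL2 stood apart from the other tissues too, with means of 8059 CPM in sL1 and 8543 CPM in sS1.

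A further abundant member, cas-MIR167_2-1, did not follow them. Named after its values were seen, it averaged 1586 ± 363 CPM in sBud and 1105 ± 267 CPM in sL2 (SD, n = 3 each), with log2 fold change 0.52, SE 0.28, adjusted p = 0.152. In sL2 it thus held most of the family's counts. Of the 6 tested IDs of subfamily MIR167_2, 5 were higher in sBud, and of the 7 of subfamily MIR167_1, 5 were higher and 1 lower. Some of the higher ones, named after their values were seen, depended on single libraries. With each of the 6 libraries left out, cas-MIR167_2-9 was called 1 time, cas-MIR167_1-9 4 times and cas-MIR167_2-5 5 times. In subfamily MIR167_1, cas-MIR167_1-2 had 60.8, 87.2 and 91.1 CPM in the sBud libraries, against 6.03, 12.1 and 5.68 CPM in the sL2 libraries (log2 fold change 3.29, SE 0.43, adjusted p = 2.84e-05). cas-MIR167_1-1 had 16, 7 and 12 counts in the sBud libraries, against 0, 0 and 0 counts in the sL2 libraries, so that its sBud level was at least 5.07-fold higher. The single lower member, cas-MIR167_1-8, had 0, 0 and 2 counts in the sBud libraries, against 0, 137 and 16 counts in the sL2 libraries. Its libraries overlapped and it rested on sL2 library 2. It was not called without that library (-2.77 on the log2 scale) or without sBud library 1 or 2.

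miR160 acts on auxin response factors that repress transcription. The family was higher in sBud, with 855, 672 and 1170.4 CPM in the sBud libraries, against 253, 219 and 274 CPM in the sL2 libraries (log2 fold change 1.85, SE 0.31, adjusted p = 0.000398), but under 2-fold with TMM factors computed on families (0.97). Nearly all of it was cas-MIR160-2, with 772, 595 and 1093 CPM in the sBud libraries, against 223, 204 and 227 CPM in the sL2 libraries (log2 fold change 1.91, SE 0.32, adjusted p = 0.000264). cas-MIR160-4 was the other DEM of the 5 tested IDs, with 24, 4 and 27 counts in the sBud libraries, against 1, 2 and 2 counts in the sL2 libraries, and a ratio of sBud to sL2 of 14.6 (95% exact counting interval 5.90 to 46.8).

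miR390 starts the production of small RNAs against auxin response factors from the TAS3 transcript. The family had 3660.4 ± 353 CPM in sBud and 2187 ± 413 CPM in sL2 (SD, n = 3 each), a difference under 2-fold with log2 fold change 0.74, SE 0.19, adjusted p = 0.00504, as had its main member cas-MIR390-1 (log2 fold change 0.87, SE 0.21, adjusted p = 0.00386). Both tissues were apart, with the sBud libraries of cas-MIR390-1 between 2652 and 3357 CPM and the sL2 libraries between 1477 and 2055 CPM. The change of cas-MIR390-1 passed 2-fold without sBud library 2 (1.05) or sL2 library 2 (1.13), and that of the family without sL2 library 2 (1.01). The minor cas-MIR390-4, named after its values were seen, was lower in sBud, with 36.9, 27.4 and 29.2 CPM in the sBud libraries, against 93.5, 175 and 126 CPM in the sL2 libraries (log2 fold change -2.07, SE 0.51, adjusted p = 0.00436). miR393, which acts on auxin receptors, had 59.6 ± 7.92 CPM in sBud and 48.1 ± 9.06 CPM in sL2 (SD, n = 3 each) and 0 DEMs among 3 tested IDs (log2 fold change 0.31, SE 0.36, adjusted p = 0.493). Its main member cas-MIR393-5 overlapped between the tissues (log2 fold change 0.33, SE 0.41, adjusted p = 0.545).

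**Figure D4:**
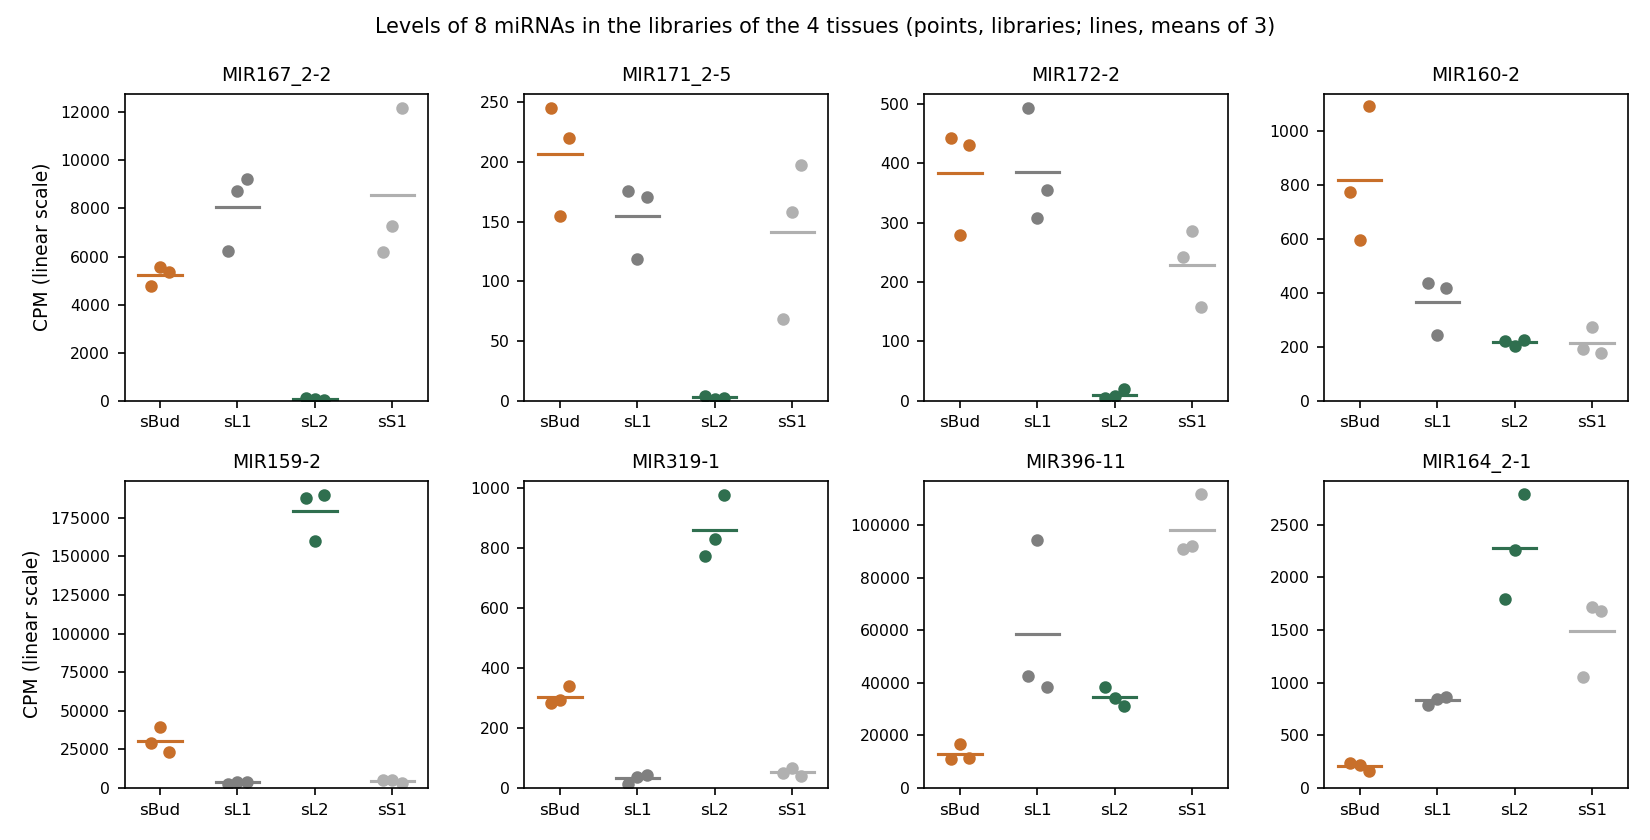
Levels of 8 miRNAs in the 12 libraries (points; vertical axis, CPM on a linear scale) by the labelled tissue (horizontal axis), with lines at the mean of 3. In the upper row (cas-MIR167_2-2, cas-MIR171_2-5, cas-MIR172-2 and cas-MIR160-2) sBud is above sL2, and in the lower row (cas-MIR159-2, cas-MIR319-1, cas-MIR396-11 and cas-MIR164_2-1) it is below. The first 3 of the upper row are near 0 in sL2 alone, and cas-MIR159-2 and cas-MIR319-1 are high in sL2, lower in sBud and lowest in sL1 and sS1.

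miR156 and miR172 mark phases of the plant's life in Arabidopsis, miR156 through SPL factors in the young plant and miR172 through AP2-like factors later on. Together, miR156, miR172 and miR535, a family close to miR156 in sequence, held 19 tested IDs, with a median of 0.11. Of these, 2 were higher, 2 lower and 15 not called, beside 18% higher and 20.7% lower over all tested IDs. Both higher ones were miR172 IDs. cas-MIR172-2 had 442, 279 and 431 CPM in the sBud libraries, against 4.53, 7.55 and 19.9 CPM in the sL2 libraries, without overlap (log2 fold change 5.13, SE 0.49, adjusted p = 1.58e-06). Without sL2 library 3, the highest of the sL2 libraries, the value was 5.94. cas-MIR172-1, named after its values were seen, had 6, 7 and 6 counts in the sBud libraries, against 0, 0 and 0 counts in the sL2 libraries, so that sBud was at least 2.91-fold higher. Summed over its IDs, the miR172 family was higher in sBud. It averaged 549.8 ± 84.4 CPM in sBud and 175 ± 48.8 CPM in sL2 (SD, n = 3 each), with log2 fold change 1.65, SE 0.27, adjusted p = 0.000379. The change was under 2-fold with TMM factors computed on families (0.82). It rested mostly on cas-MIR172-2, which averaged 384 CPM in sBud and 10.7 CPM in sL2. Other IDs held most of the sL2 level, and 4 of the 6 tested miR172 IDs were not called.

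miR156 was not called as a family. It averaged 345 ± 143 CPM in sBud and 367 ± 81.6 CPM in sL2 (SD, n = 3 each), with log2 fold change -0.09, SE 0.29, adjusted p = 0.772. The sign of its value was positive without sBud library 1 (0.09), sBud library 3 (0.09) or sL2 library 2 (0.17). Its main member cas-MIR156-26 was lower in sBud, with 51.6, 115 and 41.2 CPM in the sBud libraries, against 137, 195 and 146 CPM in the sL2 libraries (log2 fold change -1.22, SE 0.38, adjusted p = 0.0165). This call did not hold without sBud library 1, sBud library 3 or sL2 library 2, where the adjusted p was between 0.0748 and 0.0814. cas-MIR156-14 had 88.4, 125 and 77.3 CPM in the sBud libraries, against 15.1, 77.0 and 35.5 CPM in the sL2 libraries, and sL2 library 2 was close to the sBud libraries (log2 fold change 1.18, SE 0.60, adjusted p = 0.136). Without sL2 library 2 it was a DEM (log2 fold change 2.04, adjusted p = 0.0191), and so it was with limma-voom on all libraries (1.41, adjusted p = 0.0271). The second lower ID of the group was cas-MIR156-21, with 9 counts in all sL2 libraries and 0 in sBud, for which no fold change is given. In miR535, the 4 tested IDs held 0 DEMs, and the main one, cas-MIR535-7, had 992 ± 93.5 CPM in sBud and 1812 ± 482.2 CPM in sL2 (SD, n = 3 each) with log2 fold change -0.87, SE 0.24, adjusted p = 0.00885.

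Families of leaf growth and organ borders held 35 tested IDs, of which 7 were higher, 14 lower and 14 not called, beside 18% higher and 20.7% lower over all tested IDs, with a median of -0.82. miR396, which acts on growth-regulating factors (GRFs), was lower in sBud. The family had 12175, 18572 and 12369 CPM in the sBud libraries, against 48289, 44036 and 39012 CPM in the sL2 libraries (log2 fold change -1.61, SE 0.30, adjusted p = 0.000732), and 8 of its 15 tested IDs were lower and 1 was higher. Most counts of the family were of cas-MIR396-11, with 10872, 16811 and 11259 CPM in the sBud libraries, against 38293, 34380.2 and 31171 CPM in the sL2 libraries (log2 fold change -1.42, SE 0.29, adjusted p = 0.00126). In this case the other tissues were higher still, with 58447 CPM in sL1 and 98271 CPM in sS1.

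A larger difference was seen in cas-MIR396-21, which had 38.7, 87.2 and 5.16 CPM in the sBud libraries, against 2062, 1711 and 1373 CPM in the sL2 libraries. All sBud libraries were under all sL2 libraries (log2 fold change -5.34, SE 0.68, adjusted p = 2.76e-05), and without sBud library 2 the value was -6.20. cas-MIR396-13 had 2, 2 and 2 counts in the sBud libraries, against 99, 121 and 88 counts in the sL2 libraries, a ratio of sL2 to sBud of 38.6 (95% exact counting interval 17.5 to 106). cas-MIR396-14 had 0 counts in sBud and 13, 17 and 16 counts in sL2, at least 3.75-fold lower.

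Further members, named after their values were seen, varied more widely. cas-MIR396-3 was lower in sBud, with 577, 535.5 and 541 CPM in the sBud libraries, against 6294, 5049 and 4998 CPM in the sL2 libraries (log2 fold change -3.30, SE 0.43, adjusted p = 2.84e-05). cas-MIR396-8 was the higher one, with 84.8, 107 and 55.0 CPM in the sBud libraries, against 9.05, 13.6 and 8.52 CPM in the sL2 libraries (log2 fold change 2.95, SE 0.47, adjusted p = 0.000171). cas-MIR396-19 had 0, 3 and 0 counts in the sBud libraries, against 4, 949 and 111 counts in the sL2 libraries, and its lower level in sBud rested mostly on sL2 library 2. The libraries of cas-MIR396-19 overlapped, and so did those of cas-MIR396-12, which had 1, 0 and 0 counts in the sBud libraries, against 0, 239 and 58 counts in the sL2 libraries. The same sL2 library 2 was the highest for cas-MIR167_1-8. Without sL2 library 2, the log2 fold changes of cas-MIR396-19 and cas-MIR396-12 were -4.98 and -5.35 and both were still called, but all these values rest on 3 or fewer counts in any sBud library.

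miR164 limits NAC factors of the CUP-SHAPED COTYLEDON type, which set organ borders and the teeth of the leaf margin in Arabidopsis. The family had 1107, 1253 and 1133 CPM in the sBud libraries, against 3525, 4124 and 5178 CPM in the sL2 libraries, with all sBud libraries lower (log2 fold change -1.88, SE 0.24, adjusted p = 8.2e-05). Of its 6 tested IDs, 3 were lower and 0 higher, beside 20.7% lower and 18% higher over all tested IDs. cas-MIR164_2-1 had 238, 219 and 164.99 CPM in the sBud libraries, against 1798, 2260.4 and 2788 CPM in the sL2 libraries (log2 fold change -3.46, SE 0.28, adjusted p = 2.93e-07), and in the other tissues it averaged 831 CPM in sL1 and 1486 CPM in sS1. cas-MIR164-5, named after its values were seen, had 66.3, 82.2 and 70.5 CPM in the sBud libraries, against 289.6, 692 and 894 CPM in the sL2 libraries (log2 fold change -3.10, SE 0.50, adjusted p = 0.000222). The other lower ID, cas-MIR164-11, also named after its values were seen, had 1, 1 and 0 counts in the sBud libraries, against 10, 8 and 10 counts in the sL2 libraries. Its call was lost whichever of the 6 libraries was left out.

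miR171 acts on GRAS factors that keep shoot meristems undifferentiated in Arabidopsis. Its 12 tested IDs were divided, with 6 higher, 3 lower and 3 not called, beside 18% higher and 20.7% lower over all tested IDs. The summed family differed by less than 2-fold. It averaged 4952 ± 199 CPM in sBud and 3178 ± 583 CPM in sL2 (SD, n = 3 each), with log2 fold change 0.64, SE 0.18, adjusted p = 0.00774. The main member cas-MIR171_2-8 was higher in sBud, with 3591, 3195 and 3039 CPM in the sBud libraries, against 1347, 1159.7 and 1553 CPM in the sL2 libraries (log2 fold change 1.27, SE 0.21, adjusted p = 0.000219), and averaged 3200.2 CPM in sL1 and 2711 CPM in sS1. cas-MIR171_2-5 had 245, 154 and 220.0 CPM in the sBud libraries, against 4.53, 1.51 and 2.84 CPM in the sL2 libraries. Its sL2 libraries held 3, 1 and 2 counts, and the ratio of sBud to sL2 was 71.6 (95% exact counting interval 32.5 to 197).

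In the same subfamily, other members were lower. cas-MIR171_2-14 had 0, 0 and 0 counts in the sBud libraries, against 8, 34 and 23 counts in the sL2 libraries, which puts sBud at least 5.29-fold lower, or at least 3.69-fold without sL2 library 2. cas-MIR171_2-2 averaged 48.5 ± 20.2 CPM in sBud and 703 ± 146 CPM in sL2 (SD, n = 3 each), and cas-MIR171_2-9 averaged 176 ± 2.78 CPM in sBud and 719 ± 187 CPM in sL2 (SD, n = 3 each), both named after their values were seen. Their log2 fold changes were -3.87 (adjusted p = 1.94e-05) and -2.03 (adjusted p = 2.76e-05). Of the 8 tested IDs of MIR171_2, 4 were higher and 3 lower, and of the 4 of MIR171_1, 2 were higher and 0 lower. One of these was cas-MIR171_1-17, with 94.0, 229 and 351 CPM in the sBud libraries, against 22.6, 4.53 and 2.84 CPM in the sL2 libraries (log2 fold change 4.47, SE 0.66, adjusted p = 9.43e-05). sL2 library 1 was the highest of its tissue, and without it the log2 fold change was 6.0025.

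miR394, which acts on an F-box protein of meristem and leaf in Arabidopsis, had 2 tested IDs and 0 DEMs. The main one, cas-MIR394-1, had 1791, 1492 and 1782 CPM in the sBud libraries, against 1077, 732 and 877 CPM in the sL2 libraries. Its libraries did not overlap, but the change was under 2-fold (log2 fold change 0.91, SE 0.21, adjusted p = 0.00268). It passed 2-fold without sBud library 2 (1.09) or without sL2 library 1 (1.24).

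**Figure D5:**
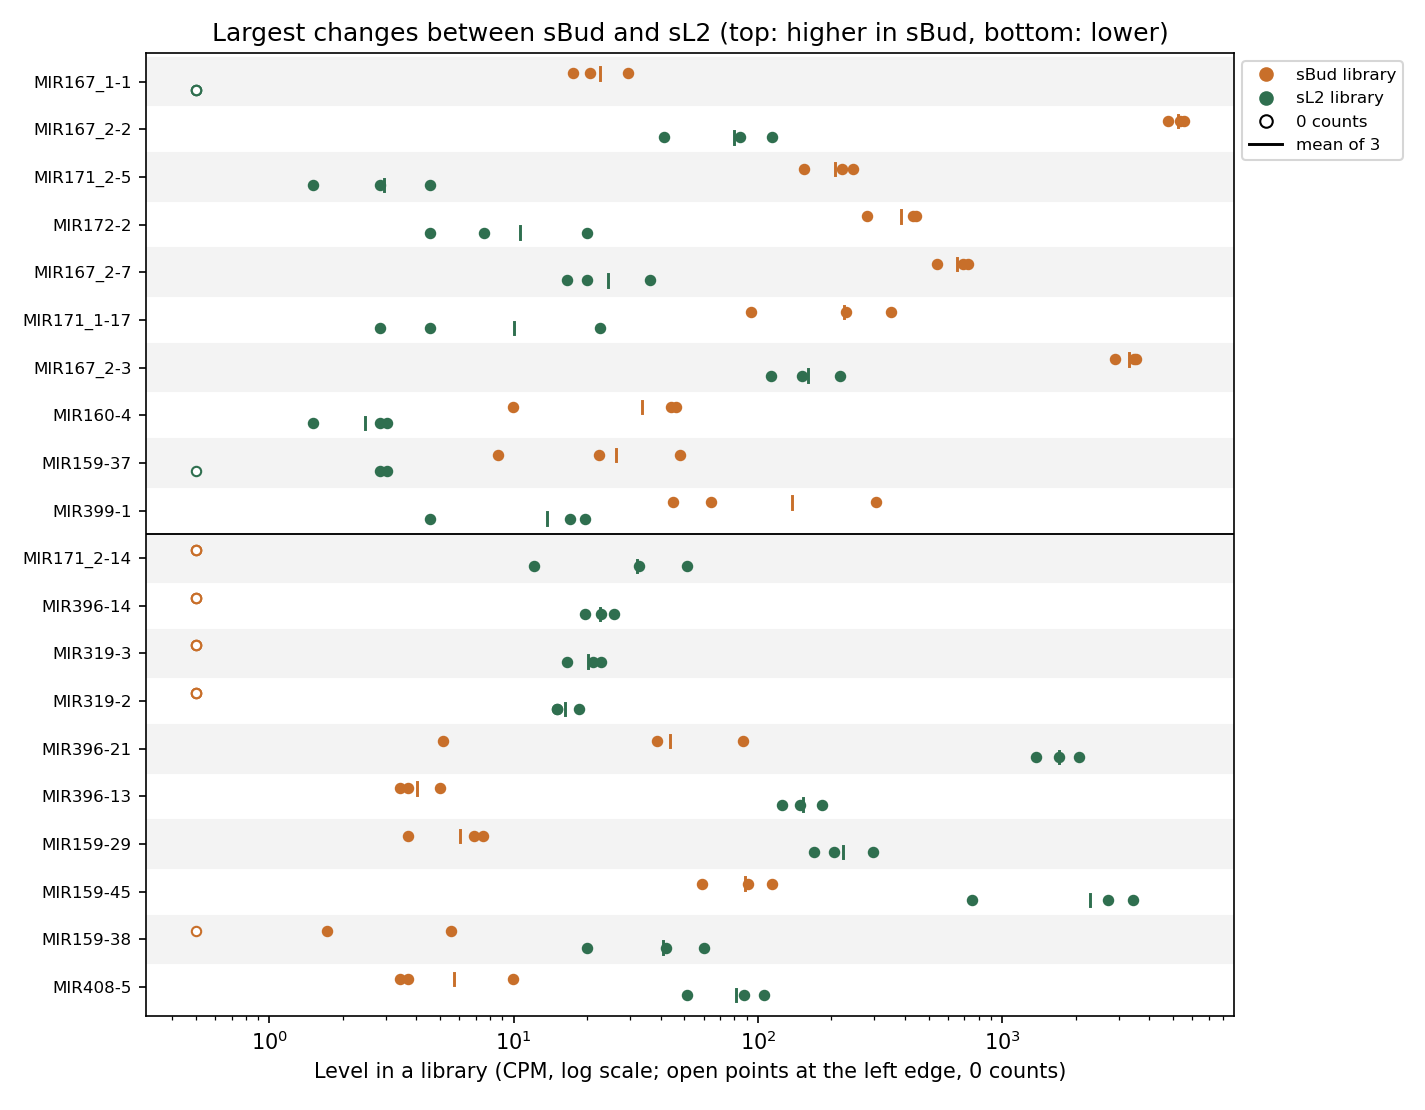
Levels in the 3 sBud libraries (upper points of a row) and the 3 sL2 libraries (lower points) of the 10 DEMs with the largest fold change in each direction, among those with a mean of 10 or more counts in the higher tissue and no overlap between the tissues (horizontal axis, CPM on a log scale; open points at the left edge are 0 counts; ticks are means of 3 where no library is at 0). The top rows are higher in sBud and include 4 miR167 IDs, and the bottom rows are lower and include 3 miR396, 3 miR159 and 2 miR319 IDs. Ranks follow the fitted fold change, which is no bound for IDs with 0 counts in all libraries of a tissue.

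The silencing machinery is itself under control of miRNAs. miR162 acts on the Dicer-like enzyme that cuts miRNA precursors, and miR168 acts on the ARGONAUTE protein that carries most miRNAs. The 2 families went in opposite directions. miR162 was higher in sBud, and nearly all of it was cas-MIR162_2-2, with 48177, 44135 and 39901 CPM in the sBud libraries, against 21267, 14182 and 18375 CPM in the sL2 libraries (log2 fold change 1.30, SE 0.20, adjusted p = 0.000119). The family was not called with TMM factors computed on families (0.48, adjusted p = 0.136). In the other tissues, cas-MIR162_2-2 averaged 35637 CPM in sL1 and 27786 CPM in sS1. miR168 was lower, with 6711, 9726 and 6806 CPM in the sBud libraries, against 15480.4, 14542 and 18142 CPM in the sL2 libraries (log2 fold change -1.05, SE 0.18, adjusted p = 0.000484).

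When sBud library 1 or 3, or sL2 library 1 or 3, was left out, the change of miR168 fell just under 2-fold, with log2 values between -0.97 and -0.91 and adjusted p values between 0.0025 and 0.00392. Its main member cas-MIR168-6 had 3785, 5071 and 3664 CPM in the sBud libraries, against 10663, 9887 and 12535 CPM in the sL2 libraries, and these libraries did not overlap (log2 fold change -1.40, SE 0.18, adjusted p = 2.76e-05). It averaged 6418 CPM in sL1 and 6875 CPM in sS1. Of the 16 tested IDs of miR162, miR168 and miR403, 1 was higher, 3 were lower and 12 were not called. This was beside 18% higher and 20.7% lower over all tested IDs, and the median was -0.30. cas-MIR162_1-2 was rare, with 2, 4 and 5 counts in the sBud libraries, against 2, 3 and 1 counts in the sL2 libraries, and was not called (adjusted p = 0.214). miR403, which acts on another ARGONAUTE gene, overlapped between the tissues in its main member cas-MIR403-4, which averaged 1116 ± 164.4 CPM in sBud and 805 ± 173 CPM in sL2 (SD, n = 3 each), with log2 fold change 0.47, SE 0.24, adjusted p = 0.136.

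miR858 acts on MYB factors of flavonoid synthesis in Arabidopsis, a pathway that yields the catechins of tea. None of its 3 tested IDs was a DEM. The main one, cas-MIR858-4, had 6886, 6107 and 6971 CPM in the sBud libraries, against 5919, 2032 and 3051 CPM in the sL2 libraries. All sBud libraries were above all sL2 libraries, but sL2 library 1 was close to them (log2 fold change 0.86, SE 0.34, adjusted p = 0.0528). Without sL2 library 1 it was a DEM (log2 fold change 1.56, adjusted p = 0.00148), and so it was without sBud library 2 (1.02, adjusted p = 0.0435) and with limma-voom on all libraries (1.003, adjusted p = 0.0232). It averaged 3979.8 CPM in sL1 and 3618 CPM in sS1. No ID of miR828, the other family of this list, was tested.

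The families of plant nutrition held 17 tested IDs. Of these, 3 were higher, 3 lower and 11 not called, beside 18% higher and 20.7% lower over all tested IDs. Their median was 0. miR399 answers to phosphate and acts on an enzyme that marks phosphate transporters for breakdown. cas-MIR399-1 had 64.5, 44.8 and 304 CPM in the sBud libraries, against 19.6, 4.53 and 17.0 CPM in the sL2 libraries (log2 fold change 3.31, SE 0.74, adjusted p = 0.00239). sBud library 3 was far above the others, and without it the log2 fold change was 1.98, still a DEM. As a family miR399 was higher in sBud. It averaged 169.4 ± 135 CPM in sBud and 33.8 ± 17.5 CPM in sL2 (SD, n = 3 each), with log2 fold change 2.33, SE 0.58, adjusted p = 0.00429, and the value was 1.46 without sBud library 3.

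miR408 and miR398 act on copper proteins. The miR408 family was lower in sBud (log2 fold change -2.81, SE 0.78, adjusted p = 0.00791), with a value of -4.20 without sBud library 2. cas-MIR408-5 had 3.69, 9.96 and 3.44 CPM in the sBud libraries, against 106, 51.3 and 88.0 CPM in the sL2 libraries (log2 fold change -3.87, SE 0.72, adjusted p = 0.000649). cas-MIR408_2-1 had 16.6, 147 and 18.9 CPM in the sBud libraries, against 279, 329 and 521 CPM in the sL2 libraries, and sBud library 2 was well above the other sBud libraries (log2 fold change -2.68, SE 0.78, adjusted p = 0.0123). Without sBud library 2 its value was -4.29, and without sBud library 1 or 3 it was no longer called, with adjusted p = 0.0583 and adjusted p = 0.0516. The main miR398 ID, cas-MIR398_2-1, had 568, 558 and 1005 CPM in the sBud libraries, against 783, 629.7 and 2446 CPM in the sL2 libraries. It was not called (log2 fold change -0.86, SE 0.60, adjusted p = 0.273), and without sL2 library 3, the highest, its value was 0.0095.

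miR395 acts on sulfate uptake and assimilation. Its main ID cas-MIR395-5 overlapped between the tissues. It averaged 1229.6 ± 780.4 CPM in sBud and 1818 ± 431 CPM in sL2 (SD, n = 3 each), with log2 fold change -0.57, SE 0.47, adjusted p = 0.349. The other member given here, cas-MIR395-14, was named after its values were seen. It was lower by the threshold, with 6, 32 and 46 counts in the sBud libraries, against 133, 214 and 178 counts in the sL2 libraries. Its call was lost whichever of the 6 libraries was left out. miR169, which acts on NF-YA factors, was higher in sBud as a family, with 51.6, 24.9 and 46.4 CPM in the sBud libraries, against 13.6, 3.02 and 1.42 CPM in the sL2 libraries (log2 fold change 2.76, SE 0.64, adjusted p = 0.00292), and without sL2 library 1 the value was 4.26. Its DEM, cas-MIR169_6-2, named after its values were seen, had 8, 2 and 15 counts in the sBud libraries, against 0, 0 and 0 counts in the sL2 libraries. This puts sBud at least 3.42-fold higher, or at least 2.22-fold without sBud library 3. cas-MIR169_1-2 had 20, 5 and 8 counts in the sBud libraries, against 7, 2 and 0 counts in the sL2 libraries. It missed the threshold (adjusted p = 0.06), but it was called without sBud library 2 (2.53) or sL2 library 1 (3.79). It was also called with limma-voom (2.69), with a replicate block (2.38) and among IDs with a family name only (2.29). No IDs of miR397, miR528, miR827 or miR857 were tested.

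miR482 acts on resistance genes of the NBS-LRR class. Of its 7 tested IDs, 1 was lower, 0 were higher and 6 not called, beside 20.7% lower and 18% higher over all tested IDs. The median was -1.09, or -0.31 with IDs that had 0 counts in a tissue set at their bound. The main member cas-MIR482-14 had 5929.7 ± 568 CPM in sBud and 6039 ± 543 CPM in sL2 (SD, n = 3 each), and its libraries overlapped (log2 fold change -0.03, SE 0.16, adjusted p = 0.921). Its value was positive in 6 of the alternatives. cas-MIR482-5, the lower one, averaged 1619 ± 294 CPM in sBud and 3444 ± 1048 CPM in sL2 (SD, n = 3 each), with log2 fold change -1.09, SE 0.23, adjusted p = 0.00185. It was named after its values were seen, and it was not called without sBud library 1 or sL2 library 3.

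The remaining 11 tested IDs with a family name held 3 higher and 2 lower DEMs, beside 18% and 20.7% of all tested IDs. Their median was 0.02. The DEMs of this group were all named after their values were seen. cas-MIR6149-1, from a family for which no target is stated here, had 8646, 5113 and 7327 CPM in the sBud libraries, against 2747, 1495 and 1785 CPM in the sL2 libraries, and was higher in sBud (log2 fold change 1.81, SE 0.28, adjusted p = 0.000144). cas-MIR8762-1 had 29, 10 and 28 counts in the sBud libraries, against 5, 9 and 2 counts in the sL2 libraries (log2 fold change 2.39, SE 0.61, adjusted p = 0.00521), with a value of 3.07 without sL2 library 2. cas-MIR530-1 was higher too, but it was not called without sBud library 1 or sL2 library 2. On the lower side, cas-MIR477-2 had 9.21, 7.47 and 15.5 CPM in the sBud libraries, against 193, 125 and 167.5 CPM in the sL2 libraries (log2 fold change -3.86, SE 0.74, adjusted p = 0.000891). cas-MIR2111-1 had 10, 4 and 7 counts in the sBud libraries, against 14, 22 and 51 counts in the sL2 libraries, and its call was lost when any of 4 libraries was left out, with -0.99 on the log2 scale without sL2 library 3.

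Among the 18 tested IDs without a family name, 3 were higher, 2 lower and 13 not called. Over all tested IDs, 18% were higher and 20.7% lower. cas-undef-156 was among the 10 most abundant IDs. It had 17469, 19139.9 and 17329.5 CPM in the sBud libraries, against 43194, 35031 and 42566 CPM in the sL2 libraries, and the tissues were well apart (log2 fold change -1.16, SE 0.15, adjusted p = 2.64e-05). Without sL2 library 1 its change was just under 2-fold (-0.94, adjusted p = 0.000799). The higher ones with counts in both tissues, cas-undef-3 and cas-undef-178, named after their values were seen, averaged 111 and 204 CPM in sBud, against 31.2 and 59.2 CPM in sL2.

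Of the 33 families with tested IDs, 4 held DEMs in both directions, which were miR159, miR167, miR171 and miR396. The rule by which reads that match several IDs were counted is not given in the sources used here. The values of single members and of family sums are uncertain to that extent.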

How the data were processed

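Small RNA libraries of bud (sBud), first leaf (sL1), second leaf (sL2) and stem (sS1) of XYMJ tea were used, 3 for each tissue, with groups taken from the deposited group tags. The study's methods describe biological replicates collected from many plants and do not say how many plants each library held. The p-values measure the spread between libraries of a tissue, estimated over all 12 libraries, and not that between single plants. The authors trimmed and filtered the reads, compared them with tea transcriptome and genome data with HISAT2, removed those of other noncoding RNAs and aligned miRNA sequences to miRBase with BLAST. The values that the authors deposited are whole-number counts of reads per miRNA ID and library, not normalized. The tool that counted reads per ID is not given in the sources used here. A kit for mRNA is named in the labels, whereas the study describes small RNA libraries. No miRNA sequences were used here.

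The test was edgeR 4.0.16 in R 4.3.3 (quasi-likelihood, TMM, 1 fit of all 12 libraries by tissue, contrast sBud minus sL2), on IDs whose counts over the 12 libraries came to 10 or more. Family counts joined subfamilies and used the TMM factors of the IDs, a choice made after seeing the data. Where a tissue had 0 counts in all libraries, the fold is a lower bound against 3 counts per library. Where it had up to 3, the ratio of summed counts over library totals after TMM scaling is given with an exact 95% interval. Totals were between 387015 and 746562 counts. The exact intervals and the bounds cover counting error only and leave out the spread between libraries. They also treat reads as independent molecules, which PCR products are not. The 95% confidence intervals of fold changes come from the edgeR fit. The procedure was tested on simulated data.

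Named are 10 DEMs in each direction, those with the largest fitted fold change. Eligible for these were DEMs with a mean of 10 or more counts in the higher tissue and no overlap of libraries. Also named are the 10 most abundant IDs and the most abundant ID of each family with a listed target class. The members that the study names are given too. All other members were named after their values were seen, also where the text does not say so. The members and lists were chosen with earlier results of these data known. Alternatives were RLE factors, library size only, removal of the 5 most abundant IDs, no filter, filterByExpr, the 2 tissues alone, DESeq2 1.42.0, limma-voom (limma 3.58.1), a replicate block, each library left out, unadjusted p, IDs with a family name only, subfamilies apart and, added later, TMM factors of the families.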

Additional observations from a re-analysis of the deposited data

How the results depend on the processing

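The number of DEMs stayed within 1.5 times the reported one under every alternative for IDs. With scaling by RLE factors or library size only it was 40 or 39 higher and 47 or 49 lower. DESeq2 called 37 higher and 39 lower, limma-voom 43 and 48, a fit of the 2 tissues alone 37 and 44, no filter 36 and 38, and filterByExpr, which tests 147 IDs, 34 and 38. Without each library in turn there were between 35 and 49 higher and between 32 and 40 lower, and for families between 8 and 11 higher and between 5 and 7 lower. Leaving out sL2 library 1 moved the median of all IDs by 0.17 and gave the largest number of higher DEMs, and leaving out sBud library 1 ended 20 of the 86 calls, more than any other library. Under all 16 alternatives that test them, 59 of the 86 DEMs were called.

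The replicate numbers of sBud and sL2 did not pair the libraries, with correlations of same-numbered deviations of 0.004, -0.0267 and -0.192. With the replicate block there were 39 higher and 41 lower DEMs, 79 of the 86 were still called, and the families called were 9 higher and 7 lower. cas-MIR169_1-2 was newly called with it (2.38). Not every library correlated best with its own number.

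For families, TMM factors computed on the 34 families, chosen after seeing the data, gave 3 higher and 11 lower, and the values of miR159 (-0.80), miR166 (-0.47), miR171 (-0.19), miR390 (-0.18), miR393 (-0.53) and miR403 (-0.50) turned negative. miR398 (-1.62), miR482 (-1.14) and miR535 (-1.43) were then called lower. miR159 also turned negative with RLE factors (-0.0164), library size only (-0.0644), DESeq2 (-0.0163) and without the 5 most abundant IDs (-0.99), which removes its main members. miR398 was positive with subfamilies apart (0.50) and ranged from -1.18 to 0.017 with a library left out, as cas-MIR398_2-1 did from -1.19 to 0.0095, the highest without sL2 library 3. miR156 ranged from -0.40 without sBud library 2 to 0.17 without sL2 library 2. cas-MIR166-4 was negative with RLE factors (-0.0285), library size only (-0.0756) and DESeq2 (-0.0285). cas-MIR482-14 was positive without the 5 most abundant IDs (0.0078) and with family-named IDs only (0.041), and ranged from -0.030 without sBud library 3 to 0.11 without sL2 library 2. None of these was a DEM in the reported fit, and the causes were not tested. Depth limits the comparison to the more abundant IDs, since 86 of the 222 had a mean under 10 counts.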
